A study of Rattus norvegicus with 6 samples.

Results

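The transcripts described here encode the transforming growth factor beta (TGF-beta) system of the rat heart: the ligands Tgfb1, Tgfb2 and Tgfb3, the latent-complex protein Ltbp1, the receptors Tgfbr1, Tgfbr2 and Tgfbr3, and the Smad genes Smad2, Smad3 and Smad7. These 10 gene symbols were taken from the 17487 symbols of the deposited count table, with the rows of a symbol summed. Polyadenylated RNA from heart tissue of 6 adult male Wistar rats, an outbred strain, was sequenced as 1 library per rat. The control group was 3 rats injected into the tail vein with 0.9% sodium chloride, once a week for 4 weeks. The doxorubicin group was 3 rats given 3.75 mg/kg of doxorubicin hydrochloride, an anthracycline cancer drug that damages the heart, by the same route and schedule. The labels name no genetic alteration, and the chamber sampled and the delay after the last injection are not given in the sources used here.

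Rats given doxorubicin are called treated in what follows. The list was put together because Tgfb2 rose in the treated hearts while Tgfb1 and Tgfb3 did not. The members were thus chosen by their measured difference between doxorubicin and control, and their own values are given as a description, not as a test. The other genes of the pathway were drawn from separate lists and are tested further on.

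TGF-beta ligands are secreted as latent dimers bound to their own propeptide, and a latent TGF-beta binding protein such as Ltbp1 ties that complex to the matrix until it is activated. The active ligand brings together the type II receptor Tgfbr2 and the type I receptor Tgfbr1, and the co-receptor Tgfbr3, also called betaglycan, presents ligand and matters most for Tgfb2. The activated type I receptor phosphorylates Smad2 and Smad3, which enter the nucleus with Smad4, and Smad7 is an induced inhibitor that acts on the receptor. In the heart the system is best known for activating fibroblasts and driving scar formation.

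The libraries held 2219685 to 3508282 counts, and levels are given as CPM, counts scaled to a common library total with trimmed mean of M-values (TMM) factors. The cardiomyocyte markers marked the tissue as heart muscle, and 9 of 10 listed genes were tested. They summed to 114726 to 131239 CPM in control and 97096 to 109050 CPM in treated hearts, lower in each treated heart. Of these genes, Myh6 differed most (log2 fold change -0.73, SE 0.25), with its groups overlapping. Tnni3 (-0.45) and Tnnt2 (-0.11) had their groups apart, and Mybpc3 (0.19) and Pln (0.17) went the other way. These 5 genes were singled out after their values were seen. Control heart 1 stood apart from the other 5, with 7395 CPM of summed red cell markers against 668 to 2685 CPM, and 93.2 CPM of platelet markers against 10.2 to 21.8 CPM. In edgeR's quasi-likelihood test, 5 of 9205 symbols (0.0543%) had a Benjamini-Hochberg adjusted p under 0.05, 2 higher (0.0217%) and 3 lower (0.0326%). Of the 10 members, 9 passed the low-count filter and Smad2 did not.

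Tgfb2 stood out among the ligands. Its level was 7.26, 8.44 and 2.84 CPM in control hearts 1, 2 and 3, from 19, 19 and 10 counts, and 50.7, 20.3 and 41.3 CPM in treated hearts 1, 2 and 3, from 158, 65 and 140 counts. Each doxorubicin heart lay above each control heart, and treated heart 2 was the lowest of its group. In tissue that was not sorted, more cells of a type and more RNA per cell cannot be told apart. The group means were 6.18 ± 2.95 and 37.4 ± 15.6 CPM (SD, n = 3), with a fitted log2 fold change of 2.65 (SE 0.41), 6.26-fold. In the edgeR fit that led to its choice, the adjusted p was 0.0440, and 5 of the 9205 tested symbols had a larger absolute log2 fold change. The adjusted p lay between 0.0572 and 0.273 in 5 of the 6 edgeR fits that left out 1 library, all but the one without treated heart 2, and the log2 fold change in the 6 fits stayed between 2.25 and 2.95.

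The regions before the start sites of the members were searched for an E-box, a cAMP response element and Smad elements. The windows of 7 genes named further on were searched too, 6 of them highest in treated hearts 1 and 3 as Tgfb2 was. Ncam1, also named further on and highest in these hearts, was not among them. The match in Tgfb2 is shown beside that in Bhlhe40, the single one of these 6 with an E-box (Thbs1, Inhbb, Tgm1, Ankrd23 and Myh7 had none), and that in Ltbp1 is shown because it is the only other member with a match. RefSeq windows (assembly GRCr8) of 250 bases before to 50 bases after the start were at hand for all 10 members. The window of Tgfb2 held the E-box CACGTG, which reads the same on both strands, 229 bases before the start, and so did that of Bhlhe40, 220 bases before the start. No other member had it, and 6.65% of 27457 windows, 1 per gene, did. Ltbp1 was the only member with the cAMP response element TGACGTCA, found in 1.91% of windows. The Smad box CAGAC, searched on both strands, was in the Ltbp1 window alone among the members, in the Bhlhe40 window too, and in 50.0% of all windows. The palindromic Smad element GTCTAGAC was in none of the member windows and in 0.215% of all. A match is only a match of letters, and the Tgfb2 start lies 542 bases inside the annotated gene, so its window may be transcribed from another start. The starts used for Tgfb3, Smad2, Tgm1 and Myh7 lie 700, 552, 1365 and 1657 bases inside their genes. The lack of a match in these windows does not cover the annotated 5′ end. The matches are shown 5′ to 3′ on the gene's strand with the motif in capitals, at chr13:100792897-100792926 on the minus strand for Tgfb2, chr4:143174218-143174247 on the plus strand for Bhlhe40 and chr6:26177391-26177420 on the minus strand for Ltbp1:
Tgfb2: cactcatccacaCACGTGtggaaggcaggg
Bhlhe40: agcgttgtccaaCACGTGagactcatgtga
Ltbp1: gatttgctgccTGACGTCAcgtctgccgca

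Tgfb1, the ligand that platelets and immune cells carry in quantity, was lower in each treated heart than in each control heart. It was at 98.9, 57.3 and 57.7 CPM in control hearts 1, 2 and 3, and it was at 50.1, 44.9 and 38.6 CPM in treated hearts 1, 2 and 3. Control heart 1 was far above the rest. The log2 fold change was -0.68 ± 0.24 (SE; edgeR adjusted p = 0.438). Without control heart 1 it was -0.36. Control heart 1 was also the library high in the platelet marker Pf4, at 82.5 CPM against 9.66 to 18.2 CPM in the other 5 libraries. The part of blood left in the tissue in the Tgfb1 level was not tested.

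Tgfb3 did not separate the groups. Its level was 59.6, 43.1 and 54.2 CPM in control and 46.2, 66.5 and 48.0 CPM in treated hearts 1, 2 and 3. The highest value was in treated heart 2, the doxorubicin heart with the least Tgfb2. The log2 fold change was 0.03 (SE 0.22).

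**Figure D1:**
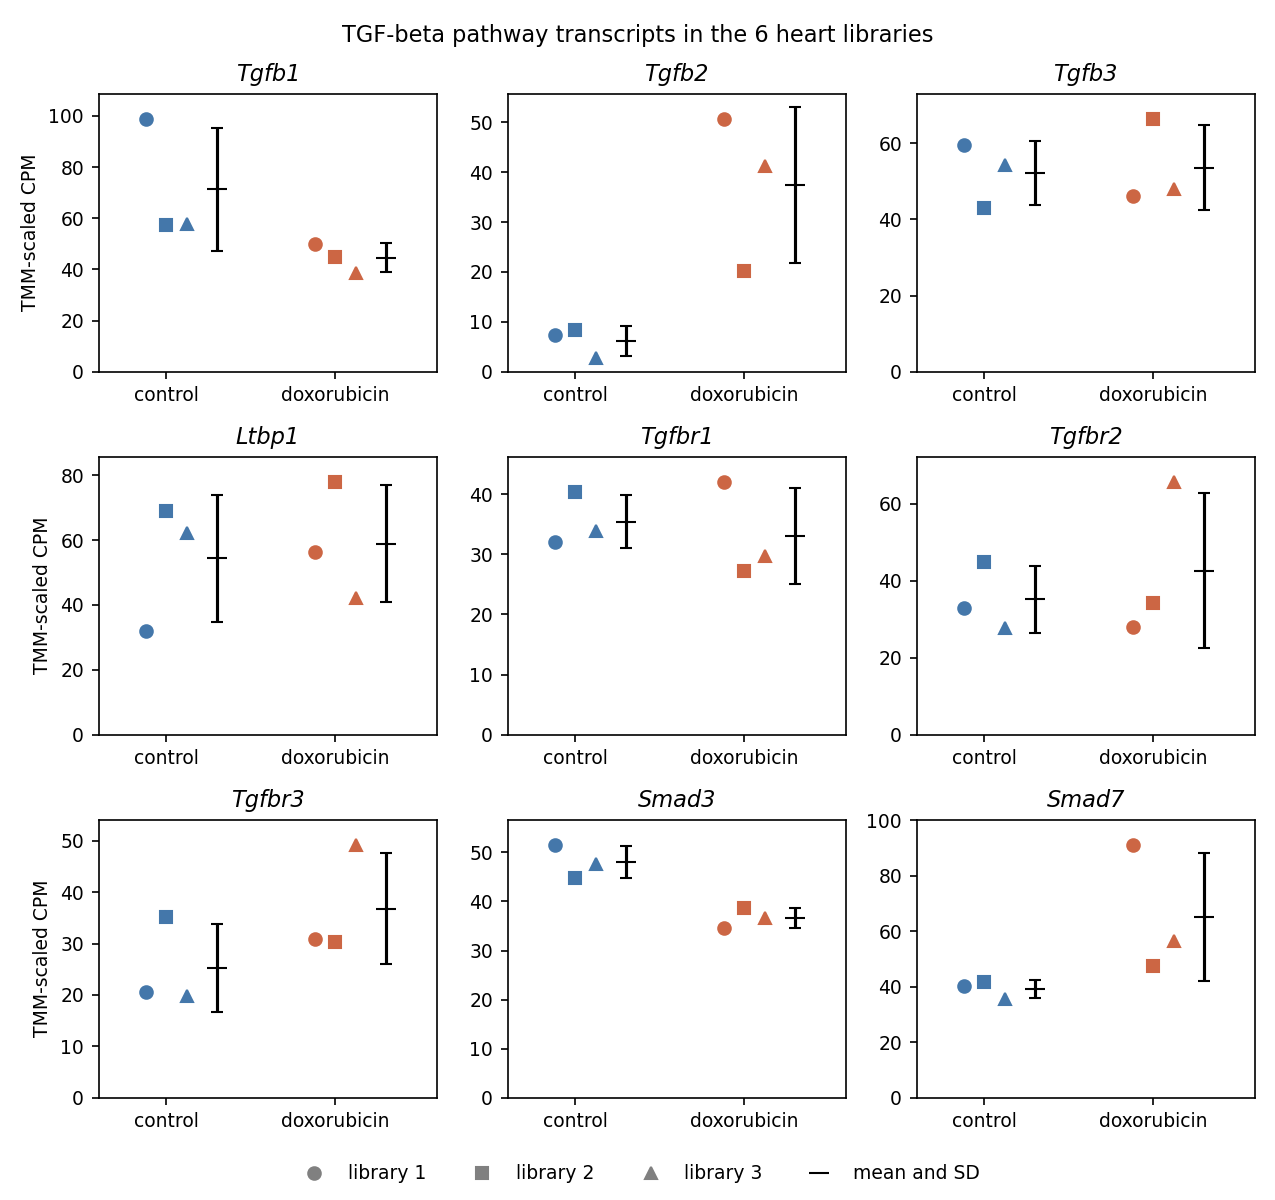
Each panel plots the TMM-scaled CPM of 1 gene (y axis, from 0) in the 3 control and 3 treated hearts (x axis), with a marker shape for each library number and the mean and SD beside the points. Tgfb2 and Smad7 are higher and Tgfb1 and Smad3 lower in every treated heart than in every control heart, and the groups overlap for the other 5 genes.

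Tgfb2 took a larger part of the ligand reads in each treated heart. As a share of the counts of the 3 ligand genes, which does not depend on the scaling of the libraries, Tgfb2 took 4.38% of control heart 1 (Wilson 95% interval 2.82 to 6.74), 7.76% of control heart 2 (5.02 to 11.8) and 2.48% of control heart 3 (1.35 to 4.50). In treated hearts 1, 2 and 3 it took 34.5% (30.3 to 39.0), 15.4% (12.3 to 19.2) and 32.3% (28.0 to 36.8). No interval of a treated heart reached that of a control heart, and the intervals cover counting error only. Tgfb2 was chosen for its rise against Tgfb1 and Tgfb3 in these same libraries, so this is a description and not a test. The 3 shares of a library add up to the whole, so they are not independent of each other. The share averaged 4.87% ± 2.67 in control and 27.4% ± 10.4 in treated hearts (SD, n = 3). The Tgfb1 share was 54.2% ± 4.90 in control and 32.8% ± 2.26 in treated hearts. The Tgfb3 share was 40.9% ± 5.79 in control and 39.8% ± 9.72 in treated hearts, with the groups overlapping. There were 1.01, 0.451 and 1.07 counts of Tgfb2 per count of Tgfb1 in treated hearts 1, 2 and 3, against 0.0734, 0.147 and 0.0493 in the control hearts. That difference too follows from the choice of Tgfb2. The summed level of the 3 ligand genes overlapped, at 109 to 166 CPM in control and 128 to 147 CPM in treated hearts. Read counts also depend on transcript length, so these shares describe reads and not molecules.

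**Figure D2:**
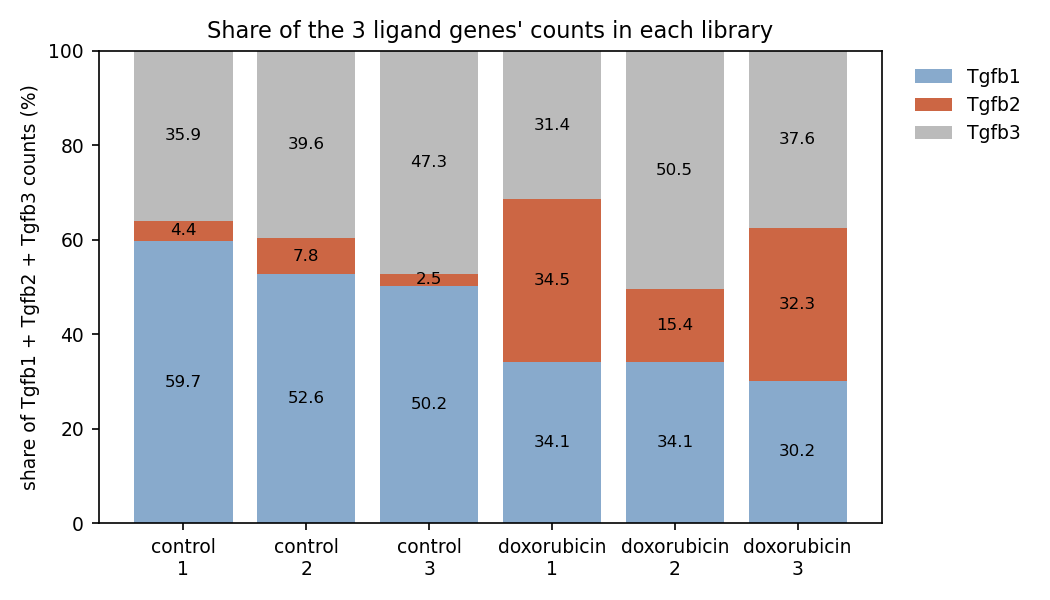
Stacked bars give the percent of the summed Tgfb1, Tgfb2 and Tgfb3 counts (y axis) that each ligand gene took in each of the 6 libraries (x axis), with the value printed in each block. The Tgfb2 block is 2.48% to 7.76% in the control bars and 15.4% to 34.5% in the doxorubicin bars, and the Tgfb1 block is smaller in each doxorubicin bar.

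Ltbp1, which holds latent ligand in the matrix, ranged as widely within the groups as between them. It was at 32.1, 68.9 and 62.2 CPM in control and 56.5, 78.0 and 42.1 CPM in treated hearts 1, 2 and 3, and its log2 fold change was 0.11 (SE 0.29). Its sign turned when control heart 1 (-0.15) or treated heart 2 (-0.13) was left out.

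The signalling receptors did not separate the groups. The type I receptor gene Tgfbr1 was at 32.1, 40.4 and 33.8 CPM in control and 42.1, 27.1 and 29.8 CPM in treated hearts 1, 2 and 3, a log2 fold change of -0.10 (SE 0.23). The type II receptor gene Tgfbr2 was at 32.8, 44.9 and 27.8 CPM in control and 27.9, 34.3 and 65.7 CPM in treated hearts, with treated heart 3 alone above the controls. Its log2 fold change of 0.29 (SE 0.30) became -0.16 without that library. The co-receptor gene Tgfbr3 was at 20.6, 35.1 and 19.9 CPM in control and 30.8, 30.3 and 49.2 CPM in treated hearts. Each doxorubicin value of Tgfbr3 exceeded those of control hearts 1 and 3, but control heart 2 lay within the doxorubicin range. Its log2 fold change was 0.56 ± 0.28 (SE; edgeR adjusted p = 0.634). In treated heart 3 both Tgfbr2 and Tgfbr3 were at their highest level of the 6 libraries.

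Smad7 lay above and Smad3 below the controls in every treated heart, and neither passed the threshold. Smad7, the inhibitory Smad and itself a target of the pathway, was at 40.1, 41.8 and 35.5 CPM in control and 91.2, 47.4 and 56.6 CPM in treated hearts 1, 2 and 3. Treated heart 1, the library with the most Tgfb2, was also the highest for Smad7, and heart 2 lay closest to the controls. The log2 fold change was 0.74 ± 0.25 (SE; edgeR adjusted p = 0.400). It was 0.42 without treated heart 1. Smad3, a receptor-activated Smad, was at 51.5, 44.9 and 47.7 CPM in control and 34.7, 38.7 and 36.6 CPM in treated hearts. Its groups did not overlap either, and it was the steadiest of the 9 tested members, with a coefficient of variation of 6.98% in control and 5.50% in treated hearts. The Smad3 log2 fold change was -0.39 ± 0.19 (SE; edgeR adjusted p = 0.627). Smad7 counts per Smad3 count were 0.778, 0.931 and 0.744 in control and 2.63, 1.23 and 1.55 in treated hearts 1, 2 and 3. With Smad7 higher and Smad3 lower in every treated heart, this ratio had to be higher there and is no further result.

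Smad2, the partner of Smad3, could not be measured. It stood on 2 rows of the table, one at 0 throughout, and had 1, 2 and 0 counts in control hearts 1, 2 and 3 and 0 counts in each treated heart. These values are at or below the floor of 3 counts, which is 0.852 to 1.33 CPM, so no fold is given. How reads shared by the 2 rows were counted is not stated, and a low count of Smad2 here does not show a low level of its transcript.

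Of the 9 tested members, 1 (Tgfb2) had an edgeR adjusted p under 0.05. In 4 of them the treated hearts all lay to one side of the controls, 2 of them higher and 2 lower, against 13.4% of all tested symbols (6.39% higher and 7.06% lower). Because the same comparison chose the members, nothing is read from these counts. Their median log2 fold change was 0.11, beside 0.02 over all tested symbols. By the ratio of the highest to the lowest animal, Tgfb2 and Smad3 mark the extremes of the spread within a group: the highest Tgfb2 value was 2.97 times the lowest in control and 2.50 times in treated hearts, against 1.15 and 1.12 times for Smad3. By the coefficient of variation Tgfbr2, at 47.4%, was the most variable member in treated hearts, ahead of Tgfb2 at 41.6%.

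**Figure D3:**
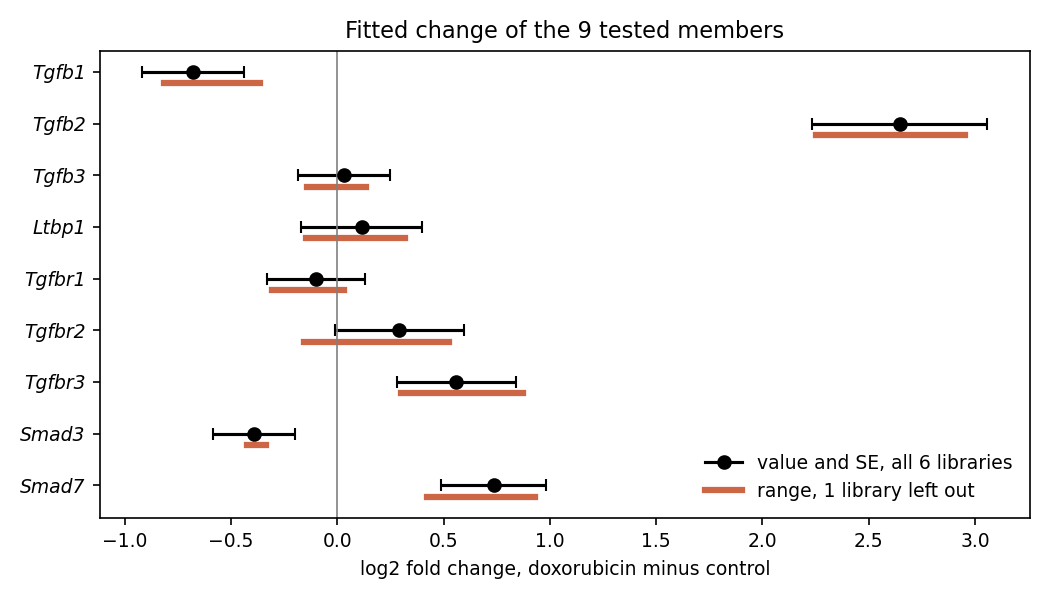
Points give the fitted log2 fold change, doxorubicin minus control (x axis), of the 9 tested members with the SE as a black bar, and the thick line under each point spans the values from the 6 fits that left out 1 library. Tgfb2, at 2.65, is far to the right of the other members, which lie between -0.68 and 0.74, and the lines of Tgfb3, Ltbp1, Tgfbr1 and Tgfbr2 cross 0.

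The rest of the pathway was covered by 6 lists of 140 genes, 134 of them in the table and 90 tested. With edgeR, 0 of the 90 had an adjusted p under 0.05, and 11 had an unadjusted p under 0.05, against 8.1% of all tested symbols. Of the 11, 9 were higher and 2 lower, where all symbols gave 4.0% and 4.11%. DESeq2 called 3 of them, Thbs1 and Bhlhe40 included, among the 0.567% of symbols that it called, and limma voom called 0, as it did over all symbols (0.0%). Without the low-count filter edgeR called 2 of the listed genes, Thbs1 included, and 0.467% of all symbols. For 8 of the 90, or 8.89%, the treated hearts all lay to one side of the controls, below the share of 13.4% over all symbols. The median log2 fold change of the 90 was 0.04. By list the median was 0.18 for other ligands, 0.12 for other receptors, 0.06 for Smads and their regulators, 0.04 for storage and activation, 0.03 for antagonists and -0.10 for targets. Without control heart 1 it turned to -0.02 for receptors, -0.01 for antagonists and 0.09 for targets.

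Among the transcriptional targets of TGF-beta signalling, 27 of 38 listed genes were tested, 13 with a positive log2 fold change, beside 52.1% of all symbols, and 14 with a negative one, with a median of -0.10. Thbs1 encodes thrombospondin 1, a matrix protein that can release TGF-beta from its latent complex, and it is therefore on the activation list too. It was at 3.06, 5.33 and 3.98 CPM in control and 30.8, 8.74 and 15.3 CPM in treated hearts 1, 2 and 3, on 8 to 14 counts per control heart. Its log2 fold change was 2.15 (SE 0.46), with an adjusted p of 0.125 in edgeR and 0.00992 in DESeq2. All 3 doxorubicin values were above the controls, treated heart 1 most of all.

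Bhlhe40, a transcriptional repressor that also belongs to the circadian clock, was at 37.0, 37.3 and 40.9 CPM in control and 137, 44.6 and 115 CPM in treated hearts. Its log2 fold change was 1.37 (SE 0.32), with an adjusted p of 0.158 in edgeR and 0.0109 in DESeq2. Over the 18 alternatives the adjusted p ranged from 0.00566 to 0.506 for Thbs1 and from 0.00233 to 0.810 for Bhlhe40 (edgeR, DESeq2 or limma). For Bhlhe40 treated heart 2 lay just above the highest control, and the other 2 treated hearts were well above it.

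The groups of a pair of target genes singled out after their values were seen did not overlap either. Ccn2, the connective tissue growth factor gene, was at 110 ± 36.6 CPM in control and 357 ± 227 CPM in treated hearts (SD, n = 3), a difference of 1.70 ± 0.41 (SE) on the log2 scale and an adjusted p of 0.207 in edgeR. Cdkn1a, a cell cycle inhibitor gene that p53 also controls, was at 204 ± 2.04 and 158 ± 8.02 CPM, a difference of -0.37 ± 0.17 (SE) on the log2 scale and an adjusted p of 0.594 in edgeR. The fibrillar collagen gene Col1a1, also singled out after its values were seen, was at 374, 239 and 294 CPM in control and 206, 411 and 148 CPM in treated hearts 1, 2 and 3. In the libraries with the most Tgfb2, treated hearts 1 and 3, Col1a1 was below each control, and in treated heart 2 it was above each control. Of the other collagen genes on the target list, Col3a1 and Col5a1 were placed likewise and Col1a2 was not. Col1a2 was at 391 CPM in treated heart 1, above the 348 to 385 CPM of the controls. A relation of these genes to Tgfb2 was not tested.

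**Figure D4:**
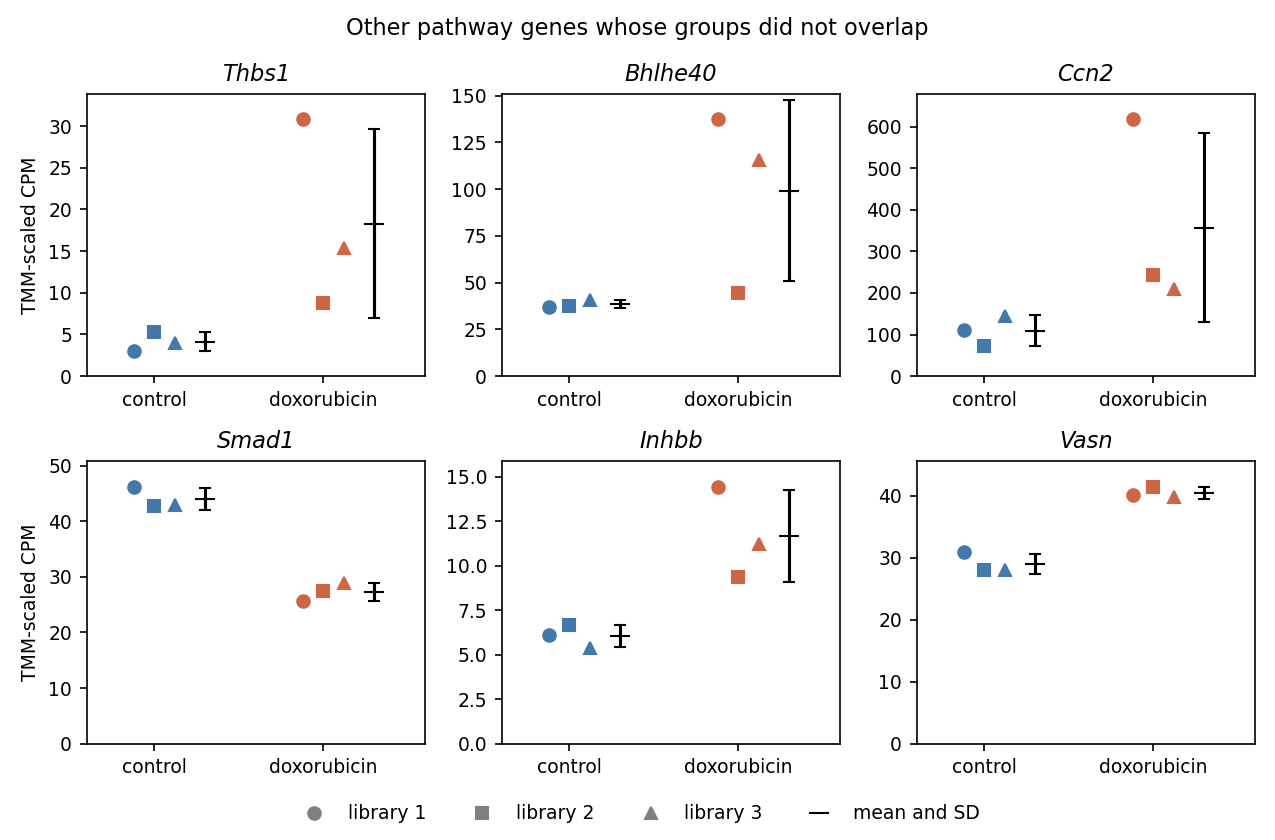
Each panel plots the TMM-scaled CPM of 1 pathway gene (y axis, from 0) in the control and treated hearts (x axis), with a marker shape for each library number and the mean and SD beside the points. Thbs1, Bhlhe40, Ccn2, Inhbb and Vasn are higher and Smad1 lower in all 3 treated hearts, and treated heart 2 is the lowest of its group for Thbs1, Bhlhe40 and Inhbb.

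On the list of other Smads and their regulators, 22 of 28 genes were tested and Smad1 was the single gene with an unadjusted p under 0.05. Smad1, a Smad that serves mainly bone morphogenetic protein (BMP) receptors, was at 46.2, 42.6 and 42.9 CPM in control and 25.7, 27.5 and 28.9 CPM in treated hearts. The groups were tight and well apart, with a difference of -0.68 ± 0.20 (SE) on the log2 scale at an adjusted p of 0.301 in edgeR. The common partner Smad4 (0.17, SE 0.19) and the inhibitory Smad6 (0.05, SE 0.25) had log2 fold changes within their errors.

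Of the 22 other ligands of the superfamily, 6 passed the low-count filter. Inhbb, which encodes the beta B subunit of inhibins and activins, was at 6.11, 6.66 and 5.40 CPM in control and 14.4, 9.36 and 11.2 CPM in treated hearts. Its groups were apart, on 15 to 19 counts per control heart, and the log2 fold change was 0.95 ± 0.35 (SE; edgeR adjusted p = 0.454). Of 16 other receptors 11 were tested and in none were the groups apart. The largest positive value was that of the activin receptor gene Acvr1b, at 1.47 (SE 0.49), with 40.8 CPM in treated heart 1 against 5.73 to 10.7 CPM in control, and without that library it was 0.69. Acvr1b, Bmpr2, a BMP receptor gene (0.86, SE 0.33), and Postn, the periostin gene on the target list (1.27, SE 0.45), were the 3 genes of the 11 whose groups overlapped. These 3 genes, Smad4, Smad6, Ltbp4 and Furin were also singled out after their values were seen.

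For the storage and activation of latent ligand, 17 of 25 genes were tested, and Thbs1 was the only one with an unadjusted p under 0.05. Ltbp4, another latent TGF-beta binding protein gene, differed by -0.31 ± 0.24 (SE) on the log2 scale, and Furin, a propeptide-cleaving protease gene, by -0.38 ± 0.19. Among extracellular antagonists and binding proteins 11 of 18 genes were tested. Vasn, whose product vasorin binds TGF-beta, was at 30.9, 28.0 and 28.1 CPM in control and 40.1, 41.5 and 39.8 CPM in treated hearts. Its log2 fold change was 0.48 ± 0.20 (SE; edgeR adjusted p = 0.550), and its groups were apart.

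The genes whose profile lay nearest to that of Tgfb2 were found by the root mean square difference of log2 CPM, each gene centred on its own mean, over the 6 libraries and among 8606 genes. Tgm1, a transglutaminase gene, was nearest, at 0.30, followed by Ncam1, a cell adhesion molecule gene (0.54), Ankrd23, a stretch-responsive muscle gene (0.56), Myh7, the beta myosin heavy chain gene (0.58), and Thbs1 (0.58). The median distance of all 8606 genes was 1.40. In all 5 the doxorubicin values lay above the control values and treated heart 2 was the lowest of its group. This measure uses the same 6 libraries that chose Tgfb2, and it is a description of likeness only.

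**Figure D5:**
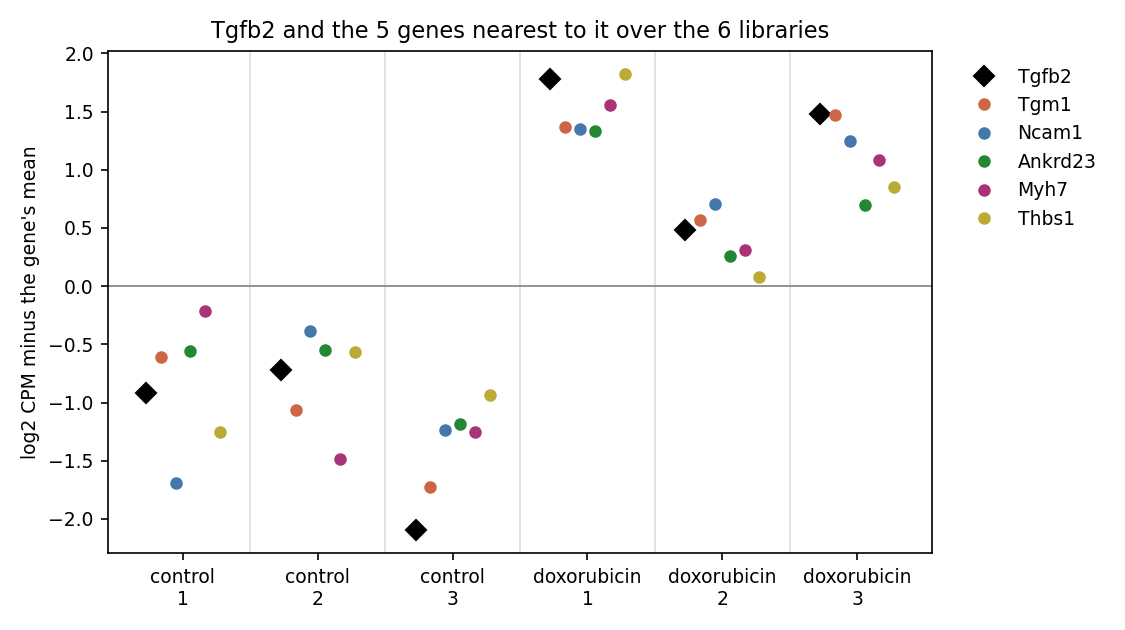
Points give log2 CPM minus the gene's own mean (y axis) in each of the 6 libraries (x axis) for Tgfb2 (black diamonds) and the 5 genes nearest to it (circles). All 6 genes are below their mean in the control hearts and above it in the treated hearts, with treated heart 2 closest to the mean of the 3.

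Markers of other heart cells are given beside the Tgfb2 and Tgfb1 levels. The 10 fibroblast markers summed to 2927 to 3243 CPM in control and to 2633, 4129 and 2514 CPM in treated hearts 1, 2 and 3. The list holds 3 collagen genes, Col1a1, Col1a2 and Col3a1, which are also on the TGF-beta target list. Col1a1 and Col3a1 were below each control in treated hearts 1 and 3. Col1a2 was below each control in treated heart 3, at 209 CPM. In treated heart 1 it was at 391 CPM, against 348 to 385 CPM in control. Without these 3, a choice made after the values were seen, the other 7 summed to 1128, 1604 and 1614 CPM in control and 1477, 1872 and 1714 CPM in treated hearts, so treated heart 3 lay above each control. Dcn carried much of these sums, at 522, 902 and 882 CPM in control and 830, 954 and 1038 CPM in treated hearts. In treated heart 3 Dcn and Fbln1 were above each control, and Lum, Tcf21 and Mfap5 were below each control. Dcn and Lum are also on the list of antagonists and binding proteins. Epicardial and mesothelial markers summed to 37.8 to 51.1 CPM in control and 36.8 to 40.6 CPM in treated hearts, with 7 of 9 listed genes in the table and Bnc1 at 0. Smooth muscle and pericyte markers, 9 of 9 tested, summed to 667 to 1025 and 777 to 1036 CPM. Endothelial markers, 9 of 9 tested, summed to 1290 to 1458 and 1045 to 1443 CPM. Among them Cldn5, a tight junction gene, was at 74.1, 66.2 and 58.5 CPM in control and 41.1, 31.5 and 17.1 CPM in treated hearts (log2 fold change -1.15, SE 0.27; adjusted p 0.158 in edgeR and 0.0254 in DESeq2), and the groups of Tie1 (-0.48, SE 0.20) were also apart. Cldn5 and Tie1 were singled out after their values were seen. The groups of all other endothelial markers overlapped, with log2 fold changes from -0.27 for Cdh5 to 0.36 for Vwf. Macrophage markers, 10 of 11 tested with Ptprc, on 5 rows, at 0, summed to 265 to 276 CPM in control. They summed to 317, 523 and 357 CPM in treated hearts 1, 2 and 3, so these groups did not overlap. Lyz2 carried much of these sums, at 97.3 ± 16.3 CPM in control and 172 ± 50.3 CPM in treated hearts (SD, n = 3). Only Lyz2 and Mrc1, singled out after their values were seen, had their groups apart. The other tested macrophage markers overlapped, with log2 fold changes from -0.15 for Adgre1 to 1.15 for Cd163. Atrial markers, 7 of 7 in the table, summed to 238 to 766 CPM in control and 3321, 327 and 975 CPM in treated hearts 1, 2 and 3. Nppa, a natriuretic peptide gene that stressed ventricles also express, made up most of these sums, with 3252 CPM in treated heart 1. The other 6 atrial markers summed to 322, 75.1 and 77.2 CPM in control and 69.7, 49.3 and 72.8 CPM in treated hearts, below each control, with Myl7 at 164 CPM in control heart 1 and 2.06 to 6.42 CPM in the other 5 libraries. Of these 6, Stard10, singled out after its values were seen, had a log2 fold change of -1.01 (SE 0.27) with its groups apart. Kcnj3 went the other way, at 0.26 (SE 0.35), and the groups of Kcnj3, Myl7 and Myl4 overlapped. Lymphocyte markers, 9 of 10 in the table, summed to 19.9 to 23.1 CPM in control and 18.9 to 26.2 CPM in treated hearts. The part of these cell types in the Tgfb2 level was not tested.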

How the data were processed

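The authors deposited raw read counts per gene symbol for the 6 libraries in a single table. The submitters' processing notes name FastQC, Trimmomatic, STAR, HTSeq and the build mRatBN7.2. The annotation, the counting mode and the use of strand are not given in the sources used here, so reads of overlapping or antisense genes may not be told apart. The members and gene lists were chosen with earlier results of these data known.

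Rows were summed per symbol (18473 rows, 17487 symbols). Doxorubicin was compared with control by edgeR's quasi-likelihood test (edgeR 4.0.16, R 4.3.3; robust, TMM, filterByExpr with a minimum count of 10 and total of 15), with Benjamini-Hochberg adjustment over all 9205 tested symbols and a threshold of 0.05. The SE is the absolute log2 fold change divided by the square root of F. Log2 CPM used a prior count of 2. Named genes were the 10 members, pathway genes past the threshold, up to 3 per list with the smallest p among those with groups apart and a mean CPM of at least 5, and the nearest genes to each ligand. Alternatives included DESeq2 1.42.0 and limma 3.58.1 voom. On counts simulated with the fitted means and dispersions (9074 symbols after the filter), the test recovered 50% of 108 symbols changed by 1 and 98.9% of 91 changed by 2 on the log2 scale. It also called 15 unchanged symbols, a larger share of its calls than the threshold of 0.05 aims for. The adjusted p may thus be too low in this setting. Many more symbols were called there than the 5 in the real comparison, which makes the adjusted threshold easier to pass. The recovery in the real comparison may thus be lower. Figures were drawn with matplotlib 3.10.9 in Python 3.11.15. The 3-count floor and intervals cover the counting error of reads only. Reads without molecular identifiers are not independent molecules, so the intervals may be too narrow. The listed genes Gdf5, Rgmb, Ski, Skil, Trim33 and Itgav were not analysed here. A few other listed genes, and 1 marker list, are not reported here.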

Additional observations from a re-analysis of the deposited data

How the results depend on the processing

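The 18 alternatives were all chosen with earlier results known, and a fit of counts per transcript length was not run, for want of transcript lengths. The Tgfb2 log2 fold change was positive in all 18 (2.25 to 2.95), and its adjusted p was under 0.05 in 9. It was above 0.05 with library size only (2.74, adjusted p 0.0864 in edgeR), limma voom (2.70, 0.114), non-robust dispersion (2.65, 0.0545 in edgeR) and the gene span correction with the replicate block (2.53, 0.0644 in edgeR). Against 5 symbols called, DESeq2 gave 74, no filter 61, the gene span correction 8, non-robust dispersion 1, and limma voom and library size only 0 each. The median over all symbols was 0.10 under library size only, against 0.02. The fits that left out 1 library gave 0 to 35 symbols called, with 35 from leaving out treated heart 2. The pathway genes called, 0 in edgeR, were 3 with DESeq2 (Thbs1 and Bhlhe40 included), 2 with no filter (Thbs1 included) and 0 to 3 over the fits that left out 1 library, the 3 without treated heart 2, again with Thbs1 and Bhlhe40. The median of the members was 0.11, and 0.032 to 0.32 when 1 library was left out. The difference in Tgfb2 share was 22.5 percentage points, and 19.0 to 28.5 when 1 library was left out. The cause of these changes was not tested.

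With the replicate number as a block 13 symbols were called and Tgfb2 had a log2 fold change of 2.61. Same-numbered libraries come from different rats, and their deviations from the group means did not go together (correlations 0.021, -0.19 and -0.056), so the block pairs nothing that the labels describe. The Tgfb1, Tgfbr3, Smad3 and Smad7 log2 fold changes kept their sign in all 18 alternatives. Those of Tgfb3, Tgfbr1, Tgfbr2 and Ltbp1 did so in 16, 16, 17 and 16.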

Other observations

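Several ligands of the superfamily that are often followed in heart disease were below the low-count filter. Gdf15, a stress-induced ligand, had 1, 3 and 6 counts in control hearts 1, 2 and 3 and 19, 10 and 15 counts in treated hearts 1, 2 and 3, with the groups apart. Mstn, the myostatin gene, had 0 to 3 counts per library, and Inhba, the inhibin beta A gene, 0 to 2. Bmp2 had 0, 2 and 2 counts in control and 1, 4 and 10 in treated hearts 1, 2 and 3. Tnc, the tenascin C gene and a matrix target, had 1 count in each control heart and 9, 9 and 3 counts in treated hearts 1, 2 and 3. Itgb8, an integrin subunit that activates latent TGF-beta, had 25 counts in treated heart 3 and 3 to 6 in the other 5 libraries. Gdf15, Bmp2, Tnc and Itgb8 were singled out after their values were seen. Other listed genes below the filter went the other way. Bmp5 had 3, 3 and 4 counts in control and 1, 2 and 1 in treated hearts 1, 2 and 3, with the groups apart. Cd109 had 11, 3 and 16 counts in control and 8, 4 and 1 in treated hearts. The matrix genes Timp1 and Bgn were listed at 0 in all 6 libraries. How reads of these genes were counted is not stated, and 0 counts do not show that their transcripts are absent. The same holds for the markers at 0, Ptprc included.

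The nearest profiles to Tgfb1 over the 6 libraries, by the same distance as for Tgfb2, were those of RGD1309779 (0.04 on the log2 scale), Alad, a heme synthesis enzyme gene (0.07), and Hint2, which encodes a mitochondrial hydrolase (0.09), all highest in control heart 1. The nearest to Tgfb3 were Smn1 (0.03), Flcn (0.05) and Osgep (0.05), all highest in treated heart 2.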
